A study of Homo sapiens with 4 samples.

Results

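The WNT target and feedback genes AXIN2, NKD1, RNF43, ZNRF3, DKK1, NOTUM, TCF7, LEF1, LGR5 and ASCL2 were followed in HCT116 cells after knockdown of WDR43. The rule that picks them is a list of names and uses no measured value, although the list was drawn up with earlier results of these data known. All 10 were found among the 29286 genes listed by Ensembl identifier. HCT116 is an established human colorectal carcinoma line with a mutant beta-catenin that escapes degradation. Every group carried a lentiviral hairpin for 48 h and then underwent puromycin selection for 3 days. The hairpin was a control (shNC, titled shNC2) in 2 libraries and was directed against WDR43, a nucleolar protein of small-subunit ribosome assembly, in the other 2. The labels give no hairpin sequence and do not say whether replicates were separate cultures, so the spread behind each p-value is that of these libraries alone and may be technical. The level of WDR43 itself was not analysed here, so the labels were not checked against it.

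In canonical WNT signalling, WNT ligands bind Frizzled and LRP receptors and stop a destruction complex from marking beta-catenin for degradation. Beta-catenin then enters the nucleus and works with factors of the TCF/LEF family, which bind DNA sites with the core CTTTG. Many of the genes switched on in this way restrain the pathway, and in the intestinal crypt the same signal maintains stem cells. A mutation that stabilises beta-catenin keeps the pathway active below the receptors, which is common in colorectal cancer.

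Values were read as FPKM, fragments per kilobase of transcript scaled to the size of the library, a unit inferred from the numbers. Between 13022 and 13373 genes reached 1 FPKM in a library. The depth behind each value is unknown. The epithelial markers EPCAM (155 to 181 FPKM) and KRT8 (531 to 807 FPKM) were high in all 4 libraries. The gut markers VIL1 (at most 0.0708 FPKM) and KRT20 (at most 0.472 FPKM) were near 0, while the gut marker CDX2 was at 1.59 to 1.74 FPKM. KRT8 itself rose, by 0.50 on the log2 scale (adjusted p = 0.0480, limma). Of 12 markers of blood, stromal, endothelial and glial cells, 8 were listed, and their summed level was 12.9 and 11.02 FPKM in shNC against 19.1 and 16.7 FPKM in shWDR43. Nearly all of that sum was COL1A1 (5.69 to 7.80 FPKM) and CD68, which was at 4.62 and 3.58 FPKM with shNC and at 11.7 and 10.6 FPKM with shWDR43. The other 6 were at or below 0.249 FPKM. CD68 rose by 1.26 on the log2 scale (adjusted p = 0.00646, limma). It shares 1789 exon bases with another transcript of the same strand, listed at 3.86 to 6.18 FPKM, so the level of CD68 is uncertain. The part of these markers in the results below was not tested.

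One of the 10 genes changed. DKK1, which encodes a secreted protein that blocks the LRP co-receptors, was the most abundant of them and rose 1.53-fold in cells with the WDR43 hairpin. For 6 others a difference was estimated and did not pass the test, and LGR5, LEF1 and ASCL2 were at or near 0 in every library. A gene was tested when it reached 1 FPKM in at least 2 libraries, and was called when its Benjamini-Hochberg adjusted p over 13303 genes was under 0.05 in limma, fitted to log2(FPKM + 1). By that rule 1 of 7 tested members was called higher and 0 were called lower, beside 4.79% and 1.47% of all tested genes, or 6.26% in either direction. DKK1 was also the only one of the 7 with an unadjusted p below 0.05, beside 3512 of the 13303 tested genes.

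DKK1 (ENSG00000107984) lies on the plus strand of chromosome 10, from 52314296 to 52318042 in GENCODE release 29 of GRCh38. Its level was 75.8 and 77.4 FPKM in the shNC libraries and 115 and 119 FPKM in the shWDR43 libraries. Both knockdown libraries were thus above both controls, and libraries of a group were far closer to each other than the groups were. The means were 76.6 ± 1.18 and 117 ± 2.50 FPKM (SD, n = 2 per group). The log2 difference was 0.61 ± 0.08 (SE; 95% interval 0.41 to 0.80), with an adjusted p of 0.0157 from limma. In the 4 pairings of a shWDR43 with a shNC library it ran from 0.57 to 0.64. The call was kept when any 1 library was left out (adjusted p from 0.00245 to 0.0442) and was lost when all genes above 0 were tested (adjusted p = 0.0915). In RNA from whole cultures, more cells with DKK1 and more DKK1 RNA per cell cannot be told apart. PRKG1-AS1, on the opposite strand, shares 212 exon bases with DKK1 and was listed at 0.195 to 0.401 FPKM. The sources used here do not say whether reads were counted by strand, so the reads of such pairs cannot be told apart.

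The sequence before the DKK1 start is shown because DKK1 was the gene that rose. It covers 250 bases upstream of the RefSeq start (GRCh38.p14, plus strand, chr10:52314031-52314280), with each CTTTG, or its reverse complement CAAAG, in capitals.

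DKK1: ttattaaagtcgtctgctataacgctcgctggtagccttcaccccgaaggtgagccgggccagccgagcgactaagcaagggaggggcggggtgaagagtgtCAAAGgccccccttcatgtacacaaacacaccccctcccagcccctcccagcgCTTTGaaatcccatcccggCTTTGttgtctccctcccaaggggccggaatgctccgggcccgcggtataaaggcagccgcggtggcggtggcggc

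The stretch holds 3 matches to the core, whose left ends lie 148, 95 and 76 bases before the start, the first of them on the minus strand. On either strand, 42.1% of the 35116 RefSeq promoter windows of this length hold at least 1 CTTTG. The longer motif CTTTGAA, a form of the TCF/LEF site that overlaps the core, occurs once, at the match 95 bases before the start, and in 3.8% of windows. The form CTTTGAT was not found here and occurs in 2.26% of windows. The promoter table also held RNF43, TCF7 and LEF1, but not AXIN2, NKD1, ZNRF3, NOTUM, LGR5 or ASCL2. Windows around the core before the starts of RNF43, TCF7 and LEF1 are given for comparison, 25 bases each, read along the gene. Those of RNF43 are on the minus strand at chr17:58417610-58417634 and chr17:58402841-58402865. Those of TCF7 are on the plus strand at chr5:134123392-134123416 and chr5:134123560-134123584. That of LEF1 is on the minus strand at chr4:108166411-108166435. It lies inside the LEF1 gene as annotated (108047545 to 108168956), before an internal start. The TCF7 windows and the second RNF43 window also lie inside their genes as annotated.

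RNF43, first start: tccaccctcaCTTTGtcagcaggta

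RNF43, other start: ttttctcccaCAAAGgaaaacctca

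TCF7, downstream start: tcctgggagaCAAAGagactttcac

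TCF7, downstream start: cccactggaaCAAAGgaggagagag

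LEF1: cttttccctcCAAAGaaacttggag

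None of these windows carries CTTTGAA or CTTTGAT, and the upstream TCF7 start has no core match in its 250 bases. No other longer form was searched for, here or before DKK1. The letters CTTTGTT occur at the DKK1 match 76 bases before the start and, as AACAAAG, in the second TCF7 window. Their share over all promoter windows was not counted. Such matches describe the letters and do not show binding.

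**Figure D1:**
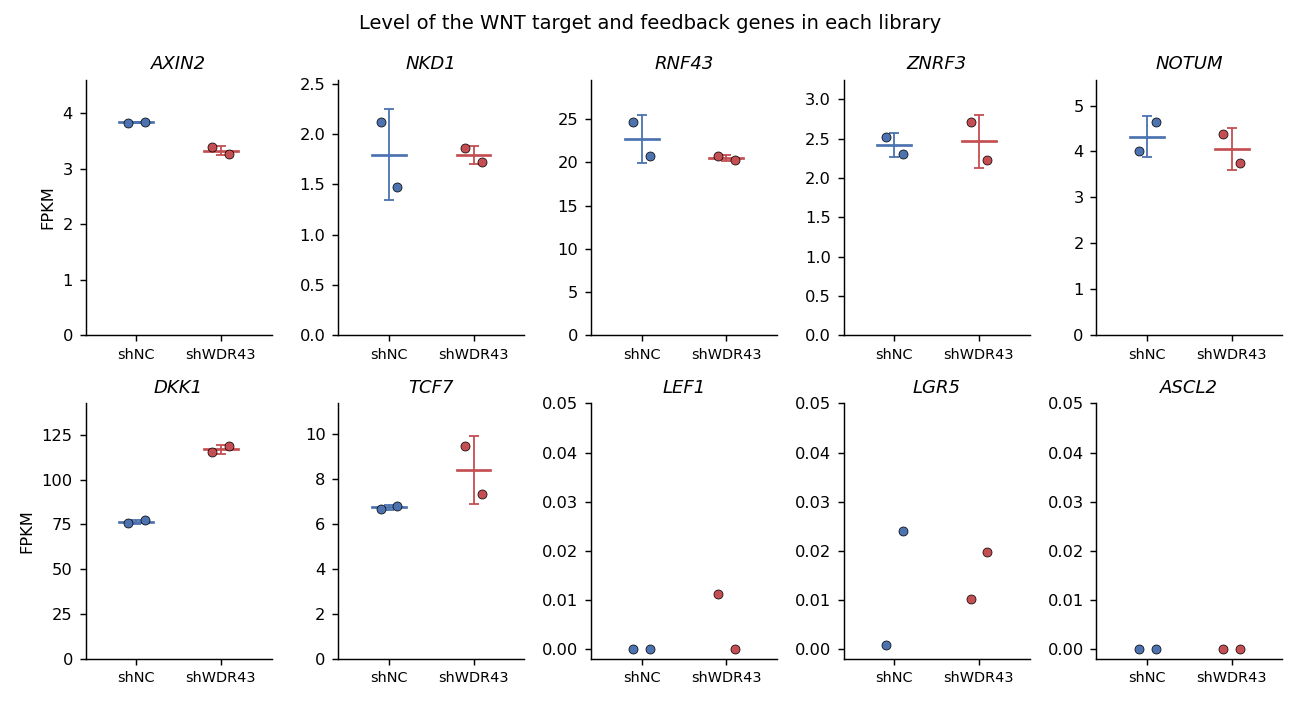
FPKM (y axis, linear, a separate range in each panel) of the 10 genes in the 2 shNC and 2 shWDR43 libraries. Points are libraries, and lines and bars are the mean and SD where all libraries exceed 0.1 FPKM; DKK1 sits at 75.8 to 77.4 FPKM in shNC and at 115 to 119 FPKM in shWDR43, while LEF1, LGR5 and ASCL2 lie below 0.03 FPKM.

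NOTUM (ENSG00000185269), the other secreted inhibitor, encodes an esterase that inactivates WNT ligands by removing their lipid. It was at 4.003 and 4.64 FPKM with shNC and at 4.38 and 3.74 FPKM with shWDR43. The groups overlapped, and the log2 difference was -0.07 ± 0.12 (95% interval -0.35 to 0.21; adjusted p = 0.743, limma). Its gene lies on chromosome 17 from 81952507 to 81961840, minus strand.

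AXIN2 and NKD1 act inside the cell. AXIN2 (ENSG00000168646; chromosome 17, 65528563 to 65561647, minus strand), a scaffold of the destruction complex and a widely used readout of the pathway, was at 3.829 and 3.833 FPKM with shNC and at 3.38 and 3.26 FPKM with shWDR43. Both knockdown libraries were lower than both controls, with a ratio of 0.867 between the means. The log2 difference of -0.16 ± 0.11 did not pass (95% interval -0.41 to 0.08; adjusted p = 0.370, limma). A gene on the same strand, ENSG00000266076, shares 1316 exon bases with AXIN2 and was listed at 0 in all 4 libraries. NKD1 (ENSG00000140807; chromosome 16, 50548330 to 50649249, plus strand) encodes a protein that binds Dishevelled, the relay between receptor and destruction complex. It was at 2.12 and 1.48 FPKM with shNC and at 1.86 and 1.73 FPKM with shWDR43, so that both knockdown values lay between the controls. Its log2 difference was 0.0068 (95% interval -0.35 to 0.36; adjusted p = 0.985, limma).

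RNF43 and ZNRF3 are related transmembrane ubiquitin ligases that remove Frizzled receptors from the cell surface. RNF43 (ENSG00000108375; chromosome 17, 58352500 to 58417595, minus strand) was the second most abundant of the 10, at 24.7 and 20.7 FPKM with shNC and 20.8 and 20.3 FPKM with shWDR43. One control library was higher than the other 3, which lay close together. The log2 difference was -0.13 ± 0.10 (adjusted p = 0.437, limma), -0.0137 without shNC replicate 1 and -0.25 without shNC replicate 2. On the same strand RNF43 shares 4326 exon bases with ENSG00000285897 (0.107 to 0.205 FPKM) and 143 with SUPT4H1 (25.4 to 31.7 FPKM). On the opposite strand it shares 1521 with TSPOAP1-AS1 (0.802 to 1.71 FPKM), so the level of RNF43 is uncertain. ZNRF3 (ENSG00000183579; chromosome 22, 28883592 to 29057487, plus strand) was at 2.52 and 2.31 FPKM with shNC and at 2.71 and 2.23 FPKM with shWDR43. The range of the knockdown libraries enclosed that of the controls, and the log2 difference was 0.02 (95% interval -0.28 to 0.32; adjusted p = 0.940, limma).

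TCF7 and LEF1 encode factors that bind beta-catenin and are themselves WNT targets. TCF7 (ENSG00000081059; chromosome 5, 134114711 to 134151865, plus strand) was at 6.67 and 6.80 FPKM with shNC and at 9.47 and 7.35 FPKM with shWDR43. Both knockdown libraries were above the controls, but they lay further apart than the lower of them did from the controls. The log2 difference of 0.27 ± 0.12 did not pass (95% interval -0.02 to 0.56; adjusted p = 0.210, limma), and was 0.11 without shWDR43 replicate 1 and 0.44 without shWDR43 replicate 2. SKP1, on the opposite strand, shares 210 exon bases with TCF7 and was listed at 26.8 to 37.6 FPKM, so the level of TCF7 is uncertain. LEF1 (ENSG00000138795; chromosome 4, 108047545 to 108168956, minus strand) was listed at 0 in 3 libraries and at 0.0112 FPKM in shWDR43 replicate 1.

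The stem-cell genes were at or near 0 throughout. LGR5 (ENSG00000139292; chromosome 12, 71439770 to 71586310, plus strand), an R-spondin receptor that marks crypt stem cells, was listed at 0.00085 and 0.0239 FPKM with shNC and at 0.0102 and 0.0198 FPKM with shWDR43. ASCL2 (ENSG00000183734; chromosome 11, 2268495 to 2270952, minus strand), a transcription factor of those cells, was listed at 0 in all 4 libraries. LEF1, LGR5 and ASCL2 did not reach 1 FPKM, were not tested, and have no fold change here.

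**Figure D2:**
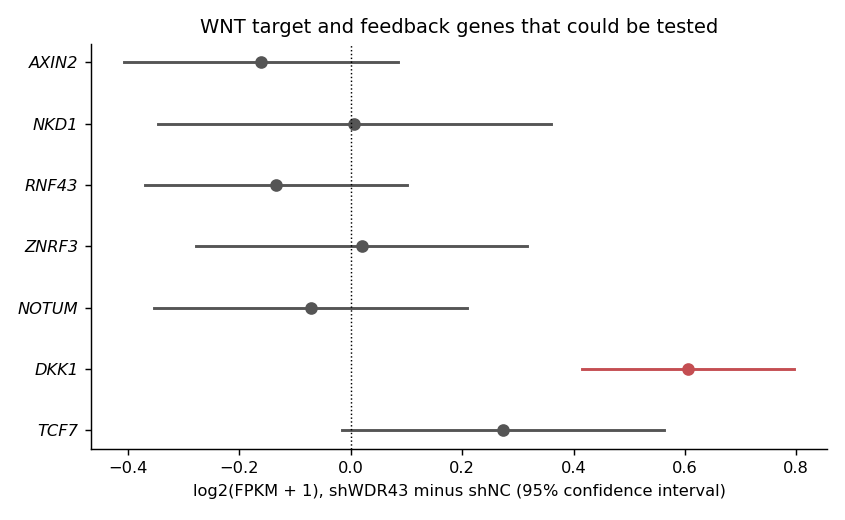
Log2 difference in FPKM + 1, shWDR43 minus shNC (x axis), of the 7 tested genes, with 95% confidence intervals from limma. DKK1 (red) has an interval from 0.41 to 0.80 and was called; the intervals of the other 6 (grey) include 0.

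Read as FPKM, the values are scaled by length, so the levels can be ordered. The places of RNF43 and TCF7 are uncertain, since each shares exon bases with other listed genes. In the shNC means the order was DKK1, RNF43 (22.7 FPKM), TCF7 (6.74), NOTUM (4.32), AXIN2 (3.83), ZNRF3 (2.41) and NKD1 (1.796), and it was the same in the shWDR43 means. Over the 4 libraries the ranges of NOTUM and AXIN2 overlapped, and those of the other neighbours in this order did not. Among the 13303 tested genes, the mean of DKK1 stood at percentile 97.0, that of RNF43 at 81.3, that of TCF7 at 50.8 and those of the other 4 between 13.5 and 33.1. The difference was positive in 4 of the 7 tested members and negative in 3, with a median of 0.0068, beside a median of 0.05 for all tested genes. In 3 of the 7, DKK1 and TCF7 upward and AXIN2 downward, the libraries of the groups did not overlap, beside 57.3% of all tested genes.

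The rest of the pathway was read from 5 lists with 98 genes, of which 89 were listed and 59 tested. The ligand genes WNT7B, WNT9A and WNT16 and the beta-catenin gene CTNNB1 rose (4 genes), and TCF7L1 fell (1 gene), beside 4.79% of all tested genes called higher and 1.47% called lower, shares to which these counts are close. WNT9A is in this count although it was tested only through its level in the shWDR43 libraries. The median log2 difference of the 59 tested genes was 0.07, beside 0.05 for all tested genes. Without shNC replicate 1, 8 of the 59 were higher and 3 lower, beside 1220 and 540 of all genes. Without shNC replicate 2 they were 9 and 6, beside 1795 and 815 of all genes. Without shWDR43 replicate 2, 3 were higher and 0 lower, beside 326 and 135 of all genes.

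Of 25 ligand, R-spondin and secretion genes 7 were tested, 3 rose and 0 fell, beside 4.79% and 1.47% of all tested genes. WNT7B was at 3.20 and 3.07 FPKM with shNC and at 7.13 and 7.52 FPKM with shWDR43, a ratio of 2.33 and a log2 change of 1.01 ± 0.10 (adjusted p = 0.00671, limma). WNT9A was at 0.682 and 0.630 FPKM with shNC and at 1.96 and 2.05 FPKM with shWDR43. Its log2 change was 0.86 ± 0.14, and it was tested only because the shWDR43 libraries exceeded 1 FPKM. The libraries of the groups did not overlap in WNT7B, beside 57.3% of all tested genes. In WNT9A a gap between the groups follows in part from the way it came to be tested. WNT16 was the most abundant listed ligand gene, at 53.8 and 56.1 FPKM with shNC and at 72.4 and 77.1 FPKM with shWDR43. Its log2 change of 0.44 passed (adjusted p = 0.0318, limma) but not without shWDR43 replicate 1 (adjusted p = 0.102) or replicate 2 (adjusted p = 0.205), nor under median-ratio scaling (0.0581) or a replicate block (0.0527).

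No receptor gene passed among 14 tested of 18 (limma). Beside 3512 of all 13303 tested genes, 2 of the 14 had an unadjusted p below 0.05. These were the Frizzled gene FZD6, at 12.2 ± 1.04 FPKM in shNC and 10.0 ± 0.319 FPKM in shWDR43, and ROR1, a receptor of WNT5A, at 0.914 ± 0.143 and 1.46 ± 0.118 FPKM (SD, n = 2 per group). DKK1 aside, no gene listed as a secreted or membrane inhibitor passed among 4 tested of 15 (limma). Of the 4, 3 had an unadjusted p below 0.05, beside the same 3512 of all tested genes. KREMEN2, which encodes a receptor of DKK1, was at 2.72 and 2.48 FPKM with shNC and at 4.18 and 3.83 FPKM with shWDR43. It was just short of the threshold at a log2 difference of 0.48 (adjusted p = 0.0514, limma). KREMEN2 shares 360 exon bases with PKMYT1 on the opposite strand, so its level is uncertain. PKMYT1 was listed at 7.43 and 5.74 FPKM with shNC and at 8.99 and 10.1 FPKM with shWDR43. NKD2 was counted in this list, although its relative NKD1 acts inside the cell. It was at 5.39 and 5.37 FPKM with shNC and at 6.57 and 6.80 FPKM with shWDR43. The difference did not pass (adjusted p = 0.129, limma).

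In the cytoplasmic relay and destruction complex 1 of 20 tested genes rose and 0 fell, beside 4.79% and 1.47% of all tested genes. CTNNB1 was at 52.5 and 55.9 FPKM with shNC and at 82.5 and 81.9 FPKM with shWDR43. The gap between the groups was several times that between the control libraries, and the ratio of the means was 1.52. The log2 change was 0.59 ± 0.08 (95% interval 0.40 to 0.78; adjusted p = 0.0159, limma), and it passed without any 1 library. APC, a scaffold that sends beta-catenin to degradation, was at 8.23 and 6.28 FPKM with shNC and at 6.26 and 6.01 FPKM with shWDR43. Its log2 difference was -0.20 (adjusted p = 0.363, limma), -0.37 without shNC replicate 2 (adjusted p = 0.0383) and -0.03 without shNC replicate 1.

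Among 14 tested nuclear partners of beta-catenin 0 rose and 1 fell, beside 4.79% and 1.47% of all tested genes. TCF7L1, a TCF factor known mainly as a repressor, was at 12.5 and 12.8 FPKM with shNC and at 9.38 and 8.28 FPKM with shWDR43, a log2 change of -0.47 ± 0.10 (adjusted p = 0.0351, limma). The call was lost without shWDR43 replicate 2 (adjusted p = 0.202). TCF7L2, the most abundant TCF/LEF gene in these cells and singled out after its values were seen, was at 107 and 98.5 FPKM with shNC and at 77.7 and 82.4 FPKM with shWDR43. Its difference of -0.36 did not pass with all 4 libraries (adjusted p = 0.0571, limma). With 1 library left out, whether it passed depended on which library that was. TCF7 had higher values in the knockdown libraries but, like TCF7L2, was not called. Whether TCF7, TCF7L1 and TCF7L2 differ from each other in their response was not tested.

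**Figure D3:**
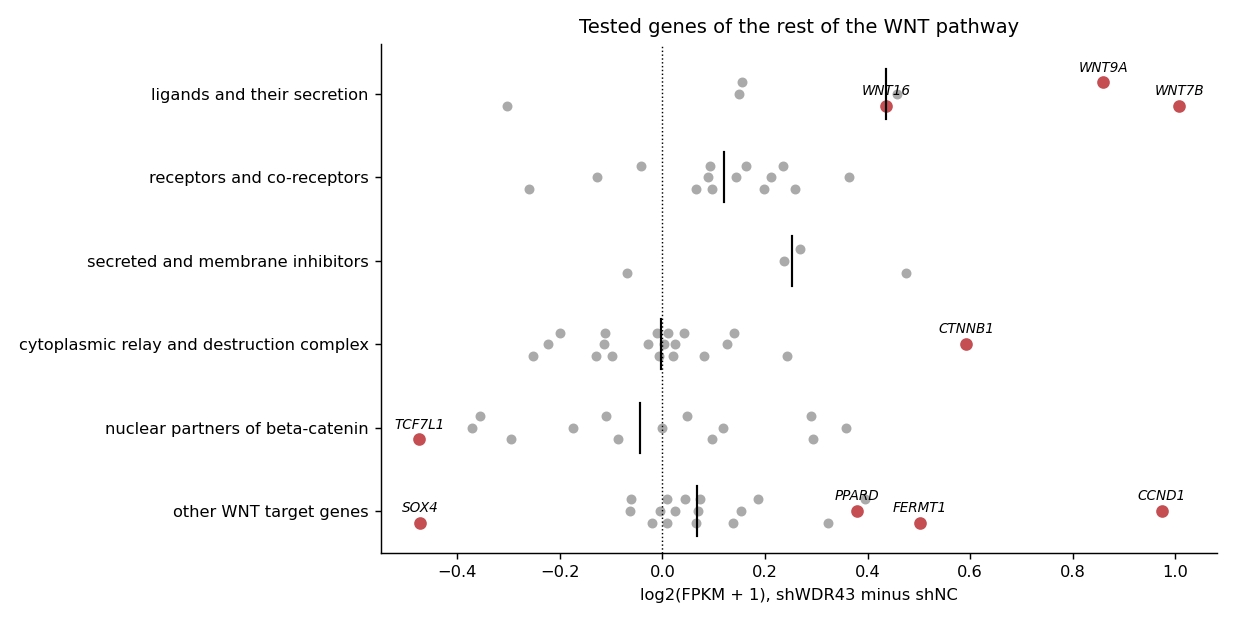
Log2 difference in FPKM + 1, shWDR43 minus shNC (x axis), of tested genes in 6 lists (y axis). Red points were called and are named, grey points were not, and the black line is the list median; most genes lie between -0.4 and 0.4, and WNT7B at 1.01 and CCND1 at 0.97 lie furthest to the right.

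Of 30 other WNT target genes, 20 were tested, 3 rose and 1 fell, beside 4.79% and 1.47% of all tested genes. Their median log2 difference over the 20 was 0.07, beside 0.05 for all tested genes. CCND1, the cyclin D1 gene, was at 75.6 and 78.5 FPKM with shNC and at 151 and 154 FPKM with shWDR43, a ratio of 1.98 (log2 change 0.97 ± 0.08; adjusted p = 0.00346, limma). CCND1 was called under all 12 alternatives. LTO1, at 3.18 to 4.61 FPKM, shares 497 exon bases with CCND1 on the opposite strand. PPARD, a lipid-sensing nuclear receptor gene, went from 15.1 ± 0.571 to 19.9 ± 0.110 FPKM and FERMT1, the kindlin-1 gene, from 4.91 ± 0.651 to 7.34 ± 0.340 FPKM (SD, n = 2 per group). PPARD and FERMT1 passed narrowly (adjusted p = 0.0439 and 0.0470, limma). Both calls were lost without either shWDR43 library and under either scaling of the libraries.

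SOX4, a transcription factor gene of progenitor cells, was the target that fell, from 41.8 and 45.2 FPKM to 31.3 and 30.8 FPKM. Its log2 change was -0.47 ± 0.08 (adjusted p = 0.0263, limma), and the call was lost without shWDR43 replicate 1 (adjusted p = 0.0767) or 2 (adjusted p = 0.0930). MYC, a classical target, was at 124 ± 11.6 FPKM with shNC and at 130.2 ± 6.42 FPKM with shWDR43 (SD, n = 2 per group). The libraries of the groups overlapped, and the log2 difference was 0.07 (95% interval -0.17 to 0.31; adjusted p = 0.703, limma). DKK1 and CCND1 thus rose in the same libraries in which AXIN2, MYC and NOTUM differed by less than could be called. Whether the genes differ from each other in their response was not tested.

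**Figure D4:**
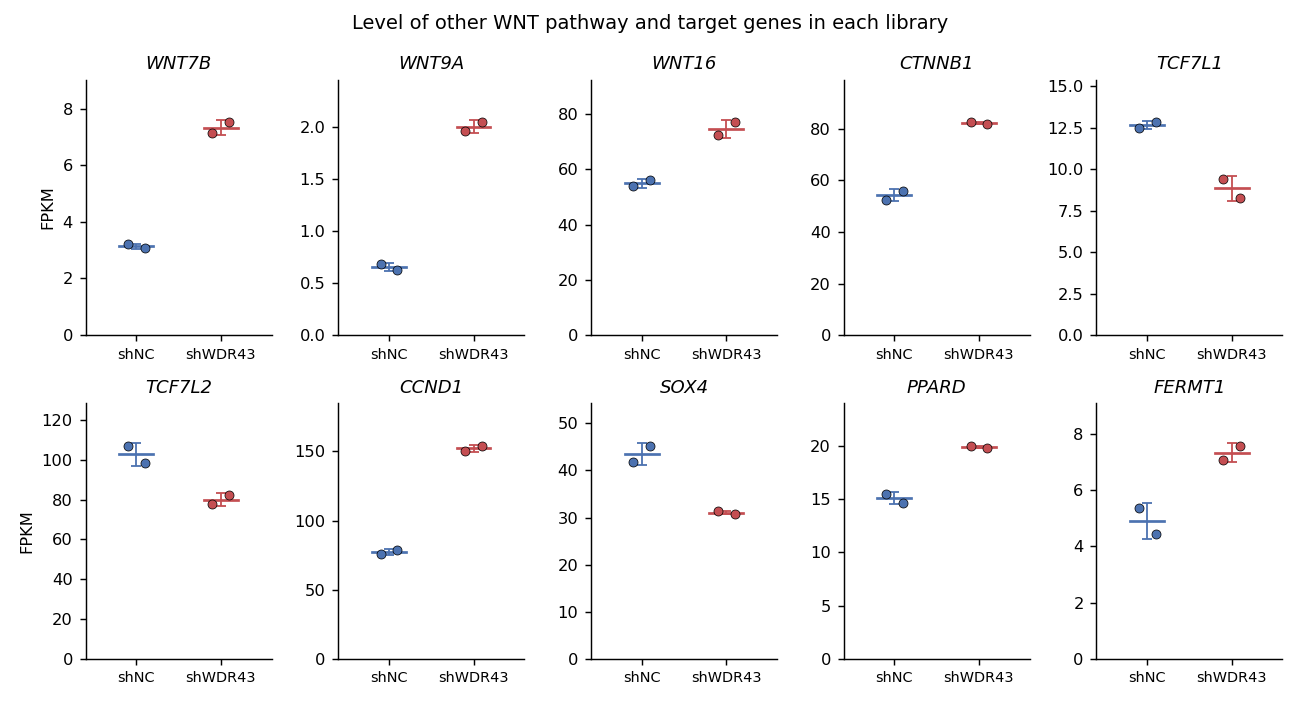
FPKM (y axis, linear from 0, a separate range in each panel) of 10 other pathway and target genes in the 2 shNC and 2 shWDR43 libraries. Points are libraries, and lines and bars are the mean and SD; the genes are those called plus TCF7L2, shown for its values, so that the groups do not overlap in any panel (57.3% of all tested genes do not), with WNT7B, WNT9A, WNT16, CTNNB1, CCND1, PPARD and FERMT1 higher and TCF7L1, TCF7L2 and SOX4 lower in shWDR43, TCF7L2 without passing the test.

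Over the 4 libraries, the genes whose log2 levels followed DKK1 most closely were SUGP2, RAB5C and SMARCA2, each with a Pearson r above 0.99. This is a description over 4 points that fall into 2 groups, and 404 of 13274 genes had an r above 0.99. The measure does not depend on the size of a change: SUGP2 went only from 23.5 to 24.2 FPKM, RAB5C from 38.6 and 39.0 to 48.8 and 49.8 FPKM, and SMARCA2 from 3.76 and 3.85 to 6.04 and 6.20 FPKM. With 6 possible groupings of the 4 libraries, the smallest p an exact two-sided permutation test of 1 gene can give is 0.333.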

How the data were processed

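The 4 deposited tables hold 1 value per Ensembl gene, read as FPKM made by the authors. The unit is an inference: each library sums to between 393582 and 413758, which TPM restricted to some genes could also give. Per the submitters' processing notes, the tools were HISAT2, RSEM, edgeR, Trimmomatic, FastQC and CASAVA 1.8 and the build was GRCh38, without role or order; the annotation release and strand setting were not found in the labels. One blank entry was left out, and 29170 of 29286 genes matched a symbol. Ratios of low values between libraries did not pile up at steps of whole reads (at most 1.01% of them fell into any 1% window), so depth is unknown and no counting interval is given.

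The filter kept genes reaching 1 FPKM in 2 or more libraries. Their log2(FPKM + 1) values were fitted across all genes with limma 3.58.1 (R 4.3.3), with the group as the only term and trended, robust empirical Bayes moderation (2 residual degrees of freedom per gene). P-values were two-sided. Differences on this scale understate the change of low genes. The fit was tested on simulated data drawn from its own estimate of spread. Such a test cannot show whether calls hold in further libraries. The members and gene lists were chosen with earlier results of these data known. All members were named whatever their result. In each other list the called genes with the smallest p-values (up to 6), or the nearest 2 where none was called, were named, besides CTNNB1, APC, MYC and CCND1. TCF7L2 lies outside this rule and was added after its values were seen. Alternative settings tried were no filter, a filter at 5 FPKM, a pseudocount of 0.1, median-ratio and upper-quartile scaling, the fit without robust moderation, the replicate number as a block, and each library left out in turn; a crossed block was added after the data were seen. Promoter sequences came from RefSeq (GRCh38.p14), and 4 of the 10 members had one. Positions and overlaps came from GENCODE release 29. Summaries used pandas 2.3.3 and plots matplotlib 3.10.9, under Python 3.11.15.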

Additional observations from a re-analysis of the deposited data

How the results depend on the processing

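DKK1 was the single member called, and 0 were called lower, under all 12 alternatives except that 0 were called higher without the filter on low values. Without the filter 26938 genes were tested, and 15 were called higher and 2 lower in all, with 0 and 0 in the pathway lists and 1 and 0 among the other targets. NKD1 turned to -0.0075 and -0.039 under median-ratio and upper-quartile scaling and ran from -0.16 to 0.17 with 1 library left out. ZNRF3 turned to -0.031 under upper-quartile scaling and ran from -0.080 to 0.12, NOTUM ran from -0.16 to 0.020, and MYC turned to -0.0012 under upper-quartile scaling and ran from -0.025 to 0.16. None of these was called, and the cause was not tested. Upper-quartile scaling moved the median of all genes from 0.05 to -0.01. In all, 637 genes were higher and 196 lower, with 311 higher under median-ratio and 327 (with 287 lower) under upper-quartile scaling. With 1 library left out, 258 to 1795 were higher and 133 to 815 lower. Pathway genes then ran from 3 to 9 higher and 0 to 6 lower, and other targets from 1 to 5 higher and 0 to 1 lower. With upper-quartile scaling or a filter at 5 FPKM, 2 pathway genes were lower. Under either scaling 1 other target was higher.

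The replicate numbers are not stated to pair libraries. With the replicate block 413 genes were higher, 1 other target was higher (CCND1), and DKK1 was still called. The deviations of same-numbered libraries were only weakly, and negatively, correlated (r = -0.15 over genes, 2 pairs). A crossed replicate block, added after the data were seen, gave 1375 genes higher and 579 lower. With it, 7 pathway genes were higher and 2 lower. Where 1 library was left out, its partner was taken to vary as the libraries of the other group do.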
